A study of Homo sapiens with 8 samples.

Results

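ID1, ID2, ID3 and HES1, 4 transcriptional repressors of the helix-loop-helix (HLH) family, were followed through every library of the series. The genes were taken by name wherever a cell line's table listed them, which gave 4 of the 12715 genes listed in either table: all 4 in BCPAP and 3 in CAL-62. ID2 was listed in BCPAP only and was not analysed in CAL-62. Oligo(dT)-selected RNA of 2 human thyroid cancer cell lines was sequenced, giving 8 libraries with 2 in each of 4 groups. BCPAP and CAL-62 cells, both labelled as anaplastic thyroid carcinoma, received either THZ1 at 100 nM for 6 h or the vehicle DMSO. THZ1 binds CDK7 covalently and blocks this kinase, a part of TFIIH that acts on the tail of RNA polymerase II, and the study's title places the comparison within oncogenic transcription driven by super-enhancers. CAL-62 was grown in another medium than BCPAP and with more serum, so effects of line and of medium cannot be told apart. Each line's table was scaled separately.

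ID proteins carry an HLH dimerization domain without the basic region that contacts DNA. They bind the ubiquitous E proteins (TCF3, TCF4 and TCF12) and keep them from pairing with tissue-specific partners, and their genes are classic targets of bone morphogenetic protein (BMP) signals carried by SMAD1, SMAD5 and SMAD9 with SMAD4. HES1 does bind DNA, recruits Groucho/TLE corepressors, is a main target of the Notch receptors through RBPJ, and represses its own promoter. The RNAs of these genes are known to turn over fast in many cells, but RNA decay was not measured here.

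The promoters of the 4 genes are shown so that the elements in them can be compared. Each sequence runs 5′ to 3′ on the gene's strand from 250 bases before the RefSeq transcription start to 50 bases after it (GRCh38.p14; the submitters' processing notes name hg19). All 4 symbols matched. Capitals mark matches on either strand to CCAAT, to the TATA core TATAAA and to TGGGAA, the core of the RBPJ site.
ID1, chr20:31605039-31605338, plus strand: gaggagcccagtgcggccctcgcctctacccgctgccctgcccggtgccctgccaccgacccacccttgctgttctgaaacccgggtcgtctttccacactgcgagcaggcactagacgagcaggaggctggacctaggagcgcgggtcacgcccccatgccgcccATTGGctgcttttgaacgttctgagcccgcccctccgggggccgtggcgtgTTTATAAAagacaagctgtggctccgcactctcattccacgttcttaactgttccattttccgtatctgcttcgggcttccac
ID2, chr2:8681806-8682105, plus strand: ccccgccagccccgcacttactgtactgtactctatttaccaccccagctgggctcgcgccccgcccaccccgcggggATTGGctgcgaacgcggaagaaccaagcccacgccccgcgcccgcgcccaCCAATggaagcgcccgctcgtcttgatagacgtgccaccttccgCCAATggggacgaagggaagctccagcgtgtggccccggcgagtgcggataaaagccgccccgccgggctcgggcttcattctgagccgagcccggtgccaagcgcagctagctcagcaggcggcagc
ID3, chr1:23559452-23559751, minus strand: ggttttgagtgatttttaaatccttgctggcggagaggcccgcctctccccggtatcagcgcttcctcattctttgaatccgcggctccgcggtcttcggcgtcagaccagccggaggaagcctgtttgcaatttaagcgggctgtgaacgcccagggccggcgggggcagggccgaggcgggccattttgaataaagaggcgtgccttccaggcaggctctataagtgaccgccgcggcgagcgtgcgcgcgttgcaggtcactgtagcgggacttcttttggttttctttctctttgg
HES1, chr3:194135898-194136197, plus strand: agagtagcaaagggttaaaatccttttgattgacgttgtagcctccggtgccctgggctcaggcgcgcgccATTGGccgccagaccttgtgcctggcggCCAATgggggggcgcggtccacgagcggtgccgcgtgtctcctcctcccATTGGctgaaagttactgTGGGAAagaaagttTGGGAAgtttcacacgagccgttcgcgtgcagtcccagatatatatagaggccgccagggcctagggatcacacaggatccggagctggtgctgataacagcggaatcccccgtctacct
HES1 held TGGGAA at 2 positions, starting 84 and 70 bases before the start, and no ID promoter held it in this window. This hexamer occurred in 24.0% of the 35116 RefSeq promoters of the same length. CCAAT was matched 3 times in HES1, 3 times in ID2, once in ID1 and nowhere in the ID3 window, against 34.6% of all promoters with at least 1 match. TATAAA was found in ID1 alone of the 4 (11.5% of all promoters), where TTTATAAA holds it on both strands. The N box CACNAG, the kind of site HES proteins bind, was matched 4 times in the HES1 window, once in ID1 and in neither other gene (38.0% of all promoters). The E box CANNTG was matched once, in ID2 (68.7% of all promoters), and GGCGCC, a GC-rich element known from BMP-responsive SMAD sites, in none of the 4 (19.2% of all promoters). These matches are letters in a window and not measured sites.

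Values are RPKM-type values (reads scaled to gene length and to a divisor per library, recovered from the values). Reads in listed genes exceeded this divisor in every THZ1 library and lay below it in every DMSO library. It was thus not a plain read total. In CAL-62 number 1 it was 21580812 with DMSO and 13804955 with THZ1, for 18779656 and 16682509 reads in listed genes. All folds and counting intervals take it as given, and small changes can change sign with it. A change is THZ1 minus DMSO in log2(value + 1), which understates changes of low genes, and SD is over n = 2 libraries. Tests are limma fits over all genes, adjusted by Benjamini-Hochberg, with calls made where the adjusted p was below 0.05. Nothing in the labels says that replicates are separate cultures, and the p-values therefore reflect only the spread between the libraries at hand, possibly a technical one. In bulk RNA, fewer cells and less RNA per cell cannot be told apart. Each library held between 16682509 and 19989730 reads in listed genes. The 13 mitochondrially encoded genes took 2.69% to 10.3% of reads and in each of the 4 groups took more in replicate number 1 than in number 2. Of the thyroid markers, PAX8, NKX2-1 and FOXE1 were listed in BCPAP and PAX8 alone in CAL-62, and TG, TSHR and SLC5A5 were listed in neither. PAX8, a thyroid lineage transcription factor, fell in CAL-62 from 91.1 and 117 to 5.20 and 29.8 (change -2.92, SE 0.64, limma adjusted p = 0.0469), a call not made from the CAL-62 libraries alone. In BCPAP it had 57.0 and 82.5 with DMSO and 30.8 and 42.5 with THZ1 (change -0.90, limma adjusted p = 0.932). FOXE1 had a change of -1.01 there and NKX2-1 went the other way at 0.15 (limma adjusted p = 0.932 and 0.964). Of 6 epithelial markers, 3 were tested in BCPAP (median change 0.33) and 5 in CAL-62 (median 0.64). All were positive and none was called, with KRT8 the largest in CAL-62 at 1.03 (limma adjusted p = 0.0796). CD68 was the 1 listed gene of 5 blood cell markers, at 14.7 ± 2.21 with DMSO and 25.6 ± 0.935 with THZ1 in CAL-62 (SD, n = 2, limma change 0.77, adjusted p = 0.0742) and at 50.4 to 75.1 in BCPAP (change 0.28). COL1A1 was the 1 listed of 6 fibroblast markers, at 6.08 to 7.78 in BCPAP and 31.0 to 62.3 in CAL-62 (changes 0.15 and 0.34). The part of these markers in the results was not tested. None of 4 endothelial markers was listed.

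ID1 had the highest value of the 4 genes in every library, followed by ID3 and then HES1. ID2 was the lowest in 3 of the 4 BCPAP libraries. In the BCPAP DMSO libraries ID1 ranked 475 and 408 among 11900 listed genes and ID3 950 and 963. HES1 ranked 6241 and 8859, and ID2, at 10626 and 10942, stood near the lower edge of the table. In the CAL-62 DMSO libraries ID1 ranked 319 and 233 among 11513 genes, ID3 1472 and 675, and HES1 4658 and 1432. The ratio of ID1 to ID3 within a library was 1.71 to 3.46, so these neighbours in the order never crossed. HES1 lay closer to ID1 in CAL-62 (ratio of ID1 to HES1 4.07 to 11.3) than in BCPAP (7.89 to 34.5), with ranges that overlap. HES1 and ID2 changed places in 1 library: in BCPAP THZ1 number 2, ID2 stood at 7.61 and HES1 at 6.57.

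**Figure D1:**
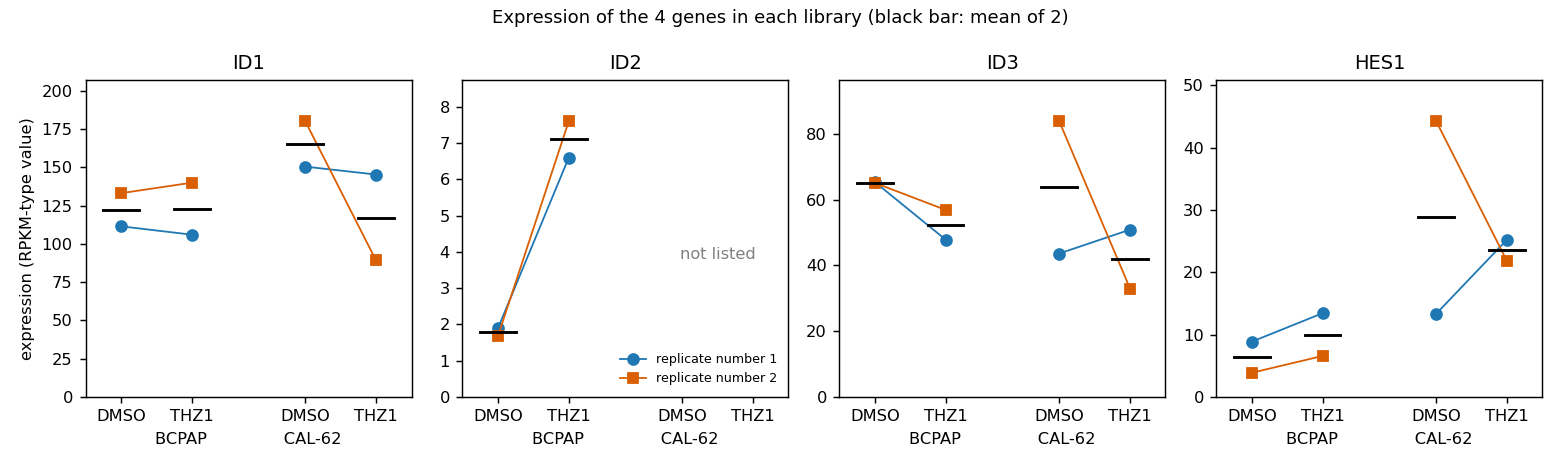
Expression of ID1, ID2, ID3 and HES1 (RPKM-type value, linear axis from 0, a separate scale per gene) in each of the 8 libraries, by line and treatment. Circles and squares are replicate numbers 1 and 2, lines join libraries of the same number, and black bars are means of 2; ID2 lay under 2 in both BCPAP DMSO libraries and above 6 in both THZ1 libraries, whereas in CAL-62 the lines of ID1, ID3 and HES1 crossed.

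No member was called in either line. The whole-table rate was 0% in BCPAP (0 of 11743 genes tested, 471 with an unadjusted p under 0.05, and 0 by limma-voom on recovered reads) and 4.62% in CAL-62 (525 of 11362). The difference of the responses was called for 0% of 10653 genes (562 with an unadjusted p under 0.05, and 0 by limma-voom). In CAL-62, 0.581% of genes were called higher and 4.04% lower after THZ1. The CAL-62 count was 0 from that line's 4 libraries alone, 9 without CAL-62 DMSO replicate 1 and 0 without CAL-62 DMSO replicate 2. With the replicate number as a block no member was called either, while the block called 0% of genes in BCPAP and 40.2% in CAL-62 (22% higher).

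ID2, like the other ID proteins a binder of E proteins, had the widest separation of the 4. In BCPAP it had 1.89 and 1.67 in the DMSO libraries and 6.61 and 7.61 in the THZ1 libraries. Both THZ1 libraries lay above both DMSO libraries, as was the case for 21.6% of all genes listed in BCPAP. Read numbers behind them were 51 and 47 in the DMSO libraries, against 163 and 184 with THZ1. Within replicate number 1 the THZ1 library held 3.50 times the DMSO value (exact 95% counting interval 2.54 to 4.89), and within number 2 it held 4.55 times (3.29 to 6.41). These intervals cover counting error only. In both numbers 99.9% of listed genes had a lower change than ID2. The fitted change was 1.54 (SE 0.25, limma adjusted p = 0.932, 95% interval 0.94 to 2.15 before any adjustment), the 10th largest of 11743 and the 7th smallest unadjusted p. The adjustment over the whole table thus left ID2 uncalled, and its size ranged from 1.23 to 1.99 over the settings tried. Many of these could not move it from 1.54, since ID2 was fitted on the 4 BCPAP libraries only. They were the fits without the filter, with the replicate block, on BCPAP alone and without a CAL-62 library. The values of 1.94 (pseudocount 0.1) and 1.99 (limma-voom) use another log offset. Its replicates were close: replicate 2 minus replicate 1 was -0.11 under DMSO and 0.18 after THZ1 in log2, and 23.6% and 27.2% of genes had smaller gaps. RefSeq also holds ID2B, a pseudogene of ID2, and the counting of reads that fit both is not given in the sources used here. With genes listed only from a DMSO mean just above 1, ID2 (DMSO mean 1.78 ± 0.152) was among the low genes that the BCPAP table still holds.

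ID1, a BMP target that holds back differentiation and is widely expressed in carcinoma lines, had overlapping groups in BCPAP. Its values were 111 and 133 under DMSO, against 106 and 140.0 after THZ1. Number 2 lay above number 1 under both treatments, and the numbers differed in sign, as for 26.5% of listed genes. The THZ1 library held 0.951 times the DMSO value in number 1 (0.899 to 1.01) and 1.05 times in number 2 (1.00 to 1.10). The fitted change was 0.00016 (SE 0.28, limma adjusted p = 1.00), with a 95% interval from -0.66 to 0.66, and turned negative under each other scaling (down to -0.40). The interval does not show that ID1 was level, since it holds changes of either sign.

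In CAL-62, ID1 had 151 and 180.3 under DMSO, against 145 and 89.1 after THZ1. Both THZ1 libraries lay below both DMSO libraries, as for 28.1% of genes listed in CAL-62, but number 1 did so narrowly on this scaling. No member had both THZ1 libraries above both DMSO libraries there, which 29.7% of listed genes had. The THZ1 library held 0.966 times the DMSO value in number 1 (0.918 to 1.02) and 0.494 times in number 2 (0.469 to 0.521). The fitted change was -0.53 (SE 0.28, limma adjusted p = 0.247), where the median of all tested genes was 0.031. It was -0.18 without CAL-62 THZ1 replicate 2 and -0.88 without CAL-62 THZ1 replicate 1. With ribosomal protein genes as the reference it passed the threshold, at -1.48 (limma adjusted p = 0.0129), a scaling under which 3149 genes were called and the median of all genes moved to -0.775.

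ID3, the closest relative of ID1 in this set by pattern and a target of the same BMP signals, had 65.3 and 65.0 under DMSO in BCPAP, against 47.8 and 56.8 after THZ1. Both THZ1 libraries lay below both DMSO libraries, as for 17% of listed genes, and 31% were lower within both numbers. Folds were 0.731 in number 1 (0.677 to 0.790) and 0.874 in number 2 (0.812 to 0.939). Neither counting interval reached 1, yet the fitted change of -0.32 (SE 0.34, limma adjusted p = 0.933) was no larger than its error. It was -0.19 without BCPAP THZ1 replicate 1 and -0.71 with mitochondrially encoded genes as the reference. The SE was 0.20 in the fit on the 4 BCPAP libraries alone (limma adjusted p = 0.810).

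In CAL-62, ID3 had 43.6 and 83.9 under DMSO, against 50.8 and 32.9 after THZ1. The DMSO libraries enclosed the number 1 THZ1 library, and the number 2 THZ1 library was the lowest. On the authors' scaling the replicate numbers went opposite ways, 1.17 times the DMSO value in number 1 (1.07 to 1.27) and 0.393 times in number 2 (0.362 to 0.425). ID3 reads in number 1 were 1211 under DMSO and 904 after THZ1, of 18779656 and 16682509 in listed genes. The direction in number 1 thus rests on the divisor, which its counting interval takes as given. The fitted change was -0.55 (SE 0.34, limma adjusted p = 0.302). It was -0.088 without CAL-62 DMSO replicate 2 and -1.02 without CAL-62 DMSO replicate 1. With ribosomal protein genes as the reference it was -1.49 (limma adjusted p = 0.0205). The DMSO libraries of CAL-62 differed by 0.93 in log2 for ID3, a wider gap than for 95.3% of listed genes.

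HES1, the Notch effector, was higher after THZ1 within both replicate numbers of BCPAP, while the numbers themselves lay apart. It had 8.85 and 3.86 under DMSO, against 13.4 and 6.57 after THZ1. Number 1 lay above number 2 under both treatments, so the groups overlap although THZ1 was the higher library of each pair. The THZ1 library held 1.52 times the DMSO value in number 1 (1.29 to 1.79) and 1.70 times in number 2 (1.34 to 2.18). The changes of 0.55 and 0.64 exceeded those of 96.6% and 97.3% of listed genes, and 42.6% of listed genes were higher within both numbers. The fitted change was 0.60 (SE 0.58, limma adjusted p = 0.932, 95% interval -0.75 to 1.94). Without BCPAP DMSO replicate 2 it was 0.085, and without BCPAP DMSO replicate 1 it was 1.11.

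In CAL-62, HES1 had 13.3 and 44.3 under DMSO, against 25.2 and 21.8 after THZ1. The DMSO libraries lay at the extremes and both THZ1 libraries between them. In number 1 the THZ1 library held 1.89 times the DMSO value (1.66 to 2.16) and in number 2 it held 0.492 times (0.447 to 0.541). The counting intervals exclude 1 in opposite directions. The fitted change was -0.06 (SE 0.58, limma adjusted p = 0.956) and became 0.77 without CAL-62 DMSO replicate 2 and -0.89 without CAL-62 DMSO replicate 1. The gap of 1.66 in log2 between the DMSO libraries was wider than for 99.1% of listed genes, against 28.6% for the THZ1 libraries. The share of reads in mitochondrially encoded genes was 6.26% and 3.74% for these DMSO libraries and 10.3% and 5.45% for the THZ1 libraries, and its part in the result was not tested.

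**Figure D2:**
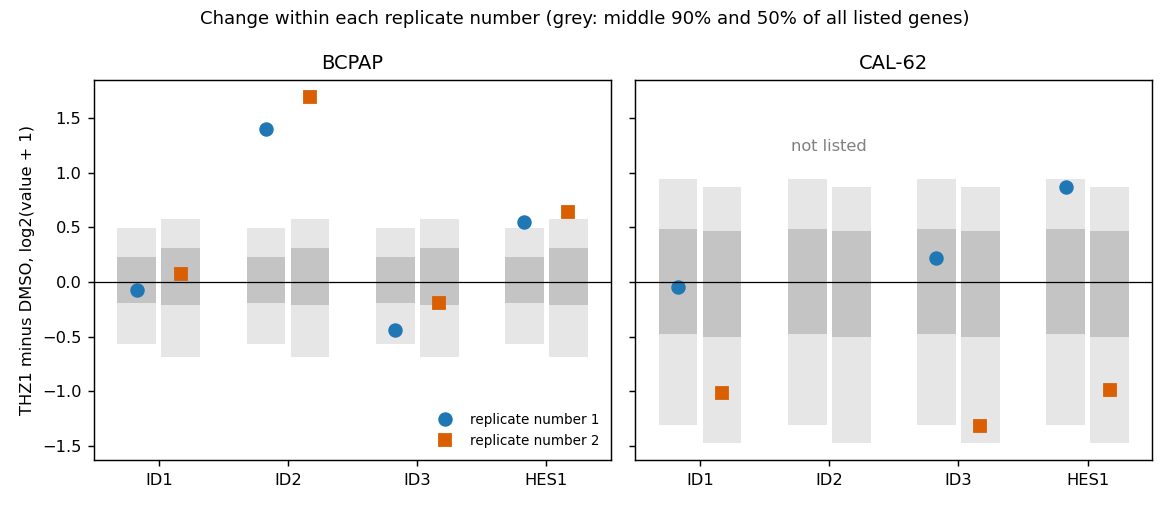
Change of each gene (THZ1 minus DMSO, log2(value + 1)) within replicate number 1 (circles) and 2 (squares) of each line, over grey bands that hold the middle 90% (light) and 50% (dark) of all listed genes for that number. ID2 lay above the 90% band in both BCPAP numbers and HES1 just above it, and in CAL-62 all 3 listed genes had changes near -1 or below in number 2 and from -0.05 to 0.87 in number 1.

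All 3 members listed in CAL-62 thus had their lower change in number 2 (-1.01 for ID1, -1.32 for ID3, -0.99 for HES1) and the higher one in number 1 (-0.05, 0.22 and 0.87). The median change of all listed genes was 0.05 in number 1 and 0.058 in number 2. These members share the same libraries, and the share of all listed genes with the lower change in number 2 was not counted. Unlike signs in the numbers, seen for ID3 and HES1 on the authors' scaling, occurred in 23.2% of genes listed in CAL-62. ID1 was lower within both numbers there, as were 35.5% of genes, and no member was higher within both, as were 41.3%. In BCPAP the numbers lay closer together for these 3 genes (-0.07 and 0.07 for ID1, -0.44 and -0.19 for ID3, 0.55 and 0.64 for HES1).

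The difference of the responses, the CAL-62 change minus the BCPAP change, was -0.53 for ID1 (SE 0.40, 95% interval -1.46 to 0.40, limma adjusted p = 0.843). It was -0.23 for ID3 (SE 0.47, 95% interval -1.33 to 0.86, limma adjusted p = 0.927) and -0.65 for HES1 (SE 0.82, 95% interval -2.55 to 1.25, limma adjusted p = 0.886). The ID1 difference was -0.18 to -0.88 with 1 library left out and -1.24 with ribosomal protein genes as the reference. None of the 3 could be told from 0 in this fit, and the intervals hold differences of 2-fold and more in at least 1 direction.

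**Figure D3:**
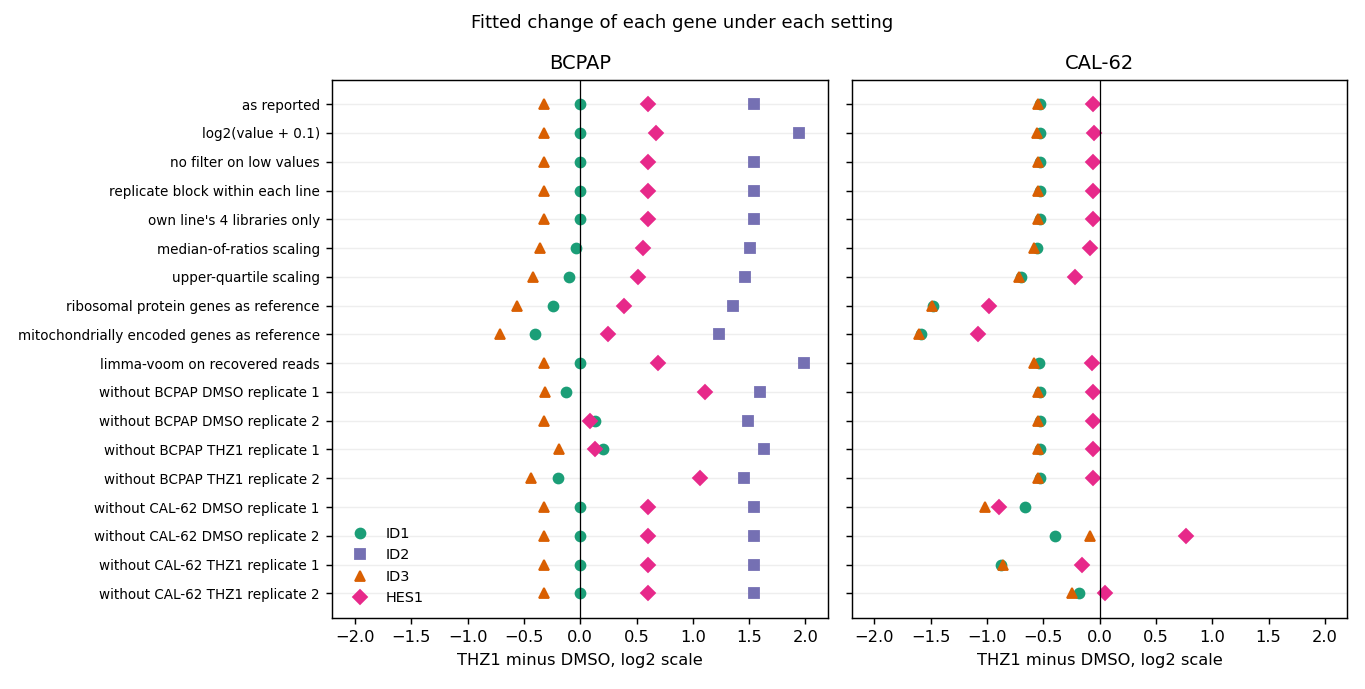
Fitted THZ1 change of each gene in each line (log2 scale, each symbol 1 gene) as reported and under each of 17 other settings, among them each library left out in turn. ID2 ranged from 1.23 to 1.99 in BCPAP, while HES1 in CAL-62 ranged from -1.08 to 0.77. Some settings, such as leaving out a library of the other line, could not move a gene's change.

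ID1 and ID3 had more similar patterns than either had with HES1. After subtracting each line's mean, the Pearson correlation over the 8 libraries was 0.803 between ID1 and ID3, 0.334 between ID3 and HES1 and 0.002 between ID1 and HES1. These points share libraries and scaling and are given as a description. The correlations pool both lines and were not computed within each line. Replicate 2 minus replicate 1 (log2, DMSO and THZ1) was 0.25 and 0.40 in BCPAP for ID1 but -1.02 and -0.93 for HES1. In CAL-62 both genes had gaps of like sign, 0.26 and -0.70 for ID1 and 1.66 and -0.20 for HES1. The pooled 0.002 therefore does not show that ID1 and HES1 were unrelated within a line. Among 7921 genes listed in both lines with a mean value of at least 5, the patterns most like that of ID1 were TICAM1 (r = 0.983), an adaptor of Toll-like receptors, FAM110A (r = 0.977) and NAT15 (r = 0.968). For ID3 they were C16orf91 (r = 0.978), JUN (r = 0.978), a subunit of the AP-1 transcription factor, and DUSP1 (r = 0.955), a MAP kinase phosphatase; both of the latter are immediate early genes. JUN had changes of 0.15 and -2.47 in CAL-62 numbers 1 and 2, and DUSP1 of -0.23 and -4.12. For HES1 they were MTHFD2 (r = 0.960), an enzyme of mitochondrial folate metabolism, CAPRIN2 (r = 0.938) and KLHL21 (r = 0.916).

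The genes around the members came from 14 lists of 122 genes in all. Of these, 86 were listed and tested in BCPAP, with 0 called and a median change of 0.10 against 0.067 over all genes. In CAL-62, 75 were listed and tested, with 1 called (1.33%, against 4.62% of all genes) and a median of -0.11 against 0.031. The called gene was DTX2, a Deltex ubiquitin ligase that acts on Notch. It had 5.41 and 6.05 under DMSO in CAL-62, against 1.64 and 1.21 after THZ1, and fell by 1.47 on the log2 scale (SE 0.30, limma adjusted p = 0.0417); with no gene called from the CAL-62 libraries alone, this call was lost there. In BCPAP it had 6.47 and 10.7 against 4.33 and 6.69 (limma change -0.54, adjusted p = 0.932).

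**Figure D4:**
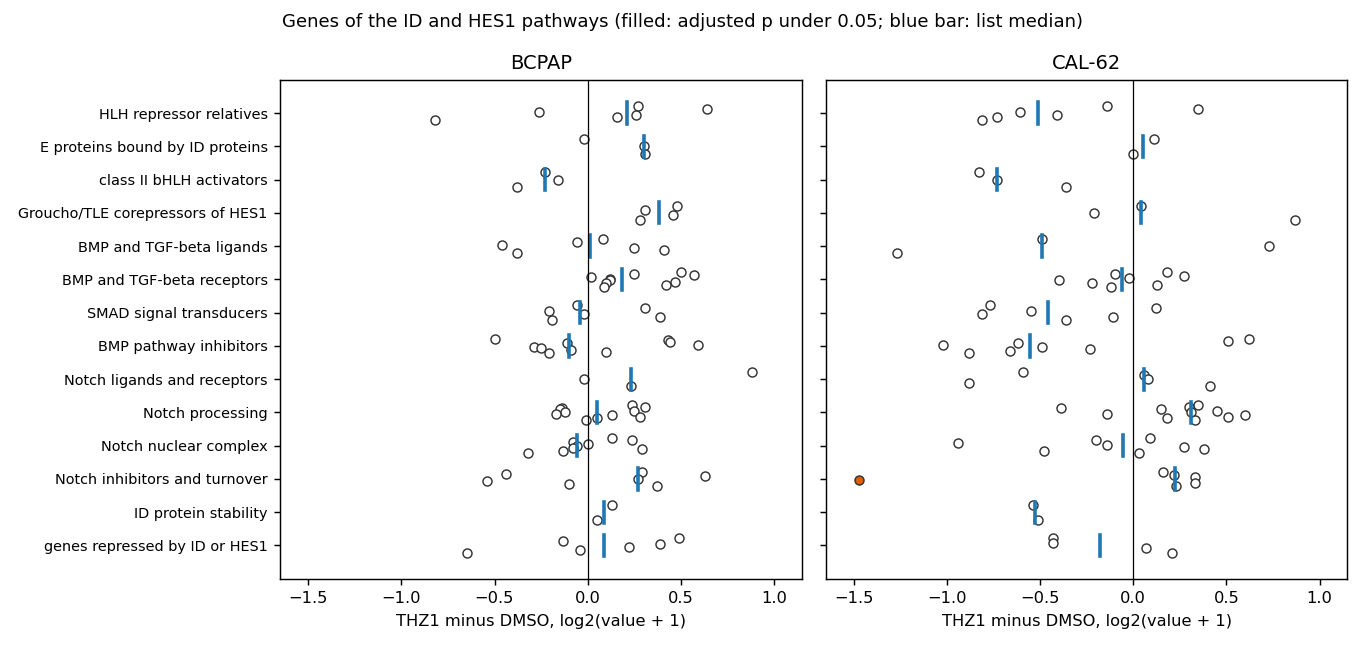
Fitted changes (THZ1 minus DMSO, log2(value + 1)) of the tested genes of the 14 lists in each line. Each circle is 1 gene, the filled circle is DTX2, the 1 called gene, and blue bars are list medians, which lay between -0.73 and 0.38.

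Upstream of the ID genes, the BMP and TGF-β lists showed no called member. Among ligands, INHBA, an activin subunit, had 36.3 and 43.2 under DMSO, against 12.1 and 20.8 after THZ1 in CAL-62 (limma change -1.27, adjusted p = 0.159). TGFB1 went the other way there, from a mean of 88.4 to 148 (limma change 0.73, adjusted p = 0.113). Of the 3 ligands tested in CAL-62, 1 was positive and 2 were negative. BMP2 and BMP4, ligands that induce ID genes, were listed in BCPAP only, with changes of 0.08 and -0.06. Of 12 receptors, 10 were tested in BCPAP (10 positive, median 0.18) and 8 in CAL-62 (3 positive, 5 negative, median -0.06). Over all tested genes the medians were 0.067 in BCPAP and 0.031 in CAL-62, so more genes were positive than negative in each line. Sign counts of lists were not tested. The 6 SMAD transducers had a median of -0.04 in BCPAP and -0.45 in CAL-62, where SMAD4, the shared partner, had 5.79 and 5.81 under DMSO, against 3.34 and 2.49 after THZ1 (limma change -0.81, adjusted p = 0.0922). SMAD1, which carries BMP signals, had a change of -0.77 there (limma adjusted p = 0.131). Of the 12 inhibitors, 10 were tested in BCPAP (4 positive, 6 negative) and 8 in CAL-62 (2 positive, 6 negative, median -0.55). SKIL, a corepressor of SMADs, had the smallest p of them in CAL-62 (14.8 and 15.2 against 8.16 and 7.29, change -0.88, limma adjusted p = 0.076). The positive inhibitors there were SMAD7 (change 0.62, limma adjusted p = 0.223) and SMURF1 (0.51, limma adjusted p = 0.201).

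Upstream of HES1, the Notch ligand JAG1 had 19.3 and 8.95 under DMSO, against 36.3 and 17.3 after THZ1 in BCPAP (limma change 0.88, adjusted p = 0.932). In CAL-62 the JAG1 change was -0.59 (limma adjusted p = 0.568). NOTCH1 had 12.5 and 14.5 against 4.20 and 11.0 in CAL-62 (limma change -0.88, adjusted p = 0.197), and NOTCH2 a change of 0.41. In BCPAP the changes were -0.02 for NOTCH1 (limma adjusted p = 0.997) and 0.23 for NOTCH2 (limma adjusted p = 0.938). The 11 genes of Notch processing, such as the protease gene ADAM10 and the convertase gene FURIN, had a median of 0.05 in BCPAP and 0.31 in CAL-62 (9 positive, 2 negative), with none called. RBPJ, the DNA-binding factor of the pathway, had changes of 0.13 and 0.09 in BCPAP and CAL-62. Of the Groucho/TLE corepressors 4 were tested in BCPAP, all positive (median 0.38), and 3 in CAL-62 (median 0.04).

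Among partners and relatives, the E proteins TCF3 and TCF12, which ID proteins bind, were at -0.02 and 0.31 in BCPAP and at 0.11 and 0.00 in CAL-62. TWIST1, a tissue-specific partner of E proteins, had 10.4 and 16.0 under DMSO in CAL-62, against 6.48 and 7.13 after THZ1 (limma change -0.83, adjusted p = 0.0848). Of 12 HLH repressor relatives, 6 were listed in each line. HES6, an atypical family member that counters HES1, had 23.0 and 88.6 under DMSO, against 40.0 and 84.2 after THZ1 in CAL-62 (limma change 0.35, adjusted p = 0.757), and HES4 had 4.63 and 17.4 against 3.34 and 18.6 (change -0.14). In both, number 2 was the higher library under both treatments, whereas for HES1 it was the lower one after THZ1. USP1, the protease that stabilizes ID proteins, had changes of 0.13 in BCPAP and -0.54 in CAL-62 (limma adjusted p = 0.183). CDKN1A, a cell cycle inhibitor gene that ID and HES proteins can repress, had 11.7 and 13.7 against 18.4 and 17.9 in BCPAP (limma change 0.49, adjusted p = 0.932), and 16.0 and 23.1 against 18.5 and 10.6 in CAL-62 (limma change -0.43, adjusted p = 0.364). Of the 6 genes of its list tested in BCPAP, 3 were positive and 3 negative, with THBS1 at -0.65 (limma adjusted p = 0.932). Of the 4 tested in CAL-62, 2 were positive and 2 negative.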

How the data were processed

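RNA from 8 libraries was measured by poly(A)-selected sequencing (oligo(dT) selection and adaptor ligation, per the labels' protocols). The authors' deposited files hold 1 RPKM-type value per gene and library. Their headers name the library but no unit, which was inferred from the values. Bowtie2, DESeq2 and hg19 appear in the submitters' processing notes, without roles or versions. For the annotation and strand setting, the sources used here give nothing. The lowest DMSO mean was just above 1 in each table (1.0008 and 1.0001), so genes below it are outside.

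Whole reads were recovered for 12715 of 12715 genes (within 0.002 reads), with gene lengths of 1222, 1364, 1288 and 1461 bases for ID1, ID2, ID3 and HES1. The main fit was limma 3.58.1 (R 4.3.3) on log2(value + 1) with a trended prior variance, for genes with a mean of at least 1, with 4 group means over 8 libraries. Genes of 1 table were fitted on its 4 libraries. Two-sided p-values were adjusted over all genes (Benjamini-Hochberg). Only the limma fit, for the CAL-62 comparison, was run on simulated counts. These were drawn independently, without shared deviations of same-numbered libraries, so they do not show how the fit handles such deviations. The members, lists and tests were chosen with earlier results of these data known. Named genes are the members, the 3 genes most correlated with each, every called list gene, and list genes of large change or known role. The last were in part chosen after their values were seen. Alternatives covered the pseudocount (0.1), the filter, a replicate block, each line alone, 4 scalings, limma-voom and each library left out. The limma-voom fit used the authors' divisors as library sizes, so it is not a separate check of that scaling. Medians of lists are descriptions without a set test.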

Additional observations from a re-analysis of the deposited data

How the results depend on the processing

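None of the changes of ID1, ID2, ID3 and HES1 in either line, nor their differences between lines, passed an adjusted p under 0.05 in the reported fit. Over all settings this held except for ID1 (-1.48) and ID3 (-1.49) in CAL-62 with ribosomal protein genes as the reference. That scaling shifts the median of all genes to -0.775, and relative to it the changes were -0.71 and -0.72, against -0.56 and -0.58 as reported. ID1 in BCPAP (0.00016) turned negative with median-of-ratios scaling (-0.04), upper-quartile scaling (-0.10), ribosomal protein genes (-0.24) or mitochondrially encoded genes (-0.40) as the reference and limma-voom (-0.00055). With 1 library left out it ranged from -0.20 to 0.20. HES1 in CAL-62 then ranged from -0.89 to 0.77. The difference of responses ranged from -0.70 to 0.23 for ID3 and from -1.48 to 0.18 for HES1.

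The number of genes called in CAL-62 (525) was 4563 with the replicate block, 0 from the 4 CAL-62 libraries alone and 3149 with ribosomal protein genes as the reference, and 0 to 833 with 1 library left out (151 and 149 without BCPAP DMSO replicate 1 or 2, 814 and 833 without BCPAP THZ1 replicate 1 or 2, 9 and 0 without CAL-62 DMSO replicate 1 or 2, 259 without CAL-62 THZ1 replicate 1). In BCPAP it was 2 with mitochondrially encoded genes as the reference and 0 to 1 with 1 library left out. The difference of responses had 1 call with a pseudocount of 0.1 and 1 with mitochondrially encoded genes as the reference. Without 1 library, an arm's lone library is assumed to vary like the other groups. The cause of these shifts was not tested.

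What a replicate number marks is not in the labels, and each line has 2 pairs. Deviations of same-numbered libraries correlated over genes (r = 0.773 in BCPAP, 0.466 in CAL-62). With the replicate block no member passed: limma adjusted p = 0.257 for ID2 in BCPAP, 0.106 for ID1 and 0.227 for ID3 in CAL-62, and 0.440 and 0.917 for HES1 in BCPAP and CAL-62. Reads limit ID2 most, with 47 to 184 per library.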

Other observations

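JAG1 was chosen here after its values were seen. In CAL-62 it had 4.17 and 11.4 under DMSO, against 7.96 and 2.18 after THZ1, so that, like HES1, it was higher after THZ1 in number 1 and lower in number 2. Unlike HES1, it had its lowest value in the number 2 THZ1 library. Over the 8 libraries, with each line's mean subtracted, the Pearson correlation of JAG1 with HES1 was 0.83, given as a description without a test.

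BHLHE41, a circadian HLH repressor also chosen after its values were seen, lay lower in both THZ1 libraries of each line than in the DMSO libraries, as did 17% of genes listed in BCPAP and 28.1% in CAL-62. It had 6.31 and 8.58 against 4.18 and 3.36 in BCPAP (limma change -0.82, adjusted p = 0.932) and 1.07 and 1.85 against 0.249 and 0.538 in CAL-62 (limma change -0.81, adjusted p = 0.0998), and neither passed. The CAL-62 DMSO mean of BHLHE41 was 1.46, where the lowest DMSO mean listed was 1.0001, and both its THZ1 values lay below that bound. BHLHE41 was thus listed in CAL-62 through its DMSO group, which favours a fall, and its values there are near the floor. Its relative BHLHE40 had 19.7 and 83.7 against 25.6 and 22.8 in CAL-62, with a DMSO library of number 2 far above the rest, as for HES1 and ID3.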
